A study of Mus musculus with 11 samples.

Results

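Broad H3K4me3 regions are stretches of the genome, here wider than 2000 bp, in which histone H3 trimethylated at lysine 4 was called without a break. They were taken from the authors' deposited list for mouse mammary gland at day 6 of pregnancy (P6), chosen by their measured width as the regions of chromosomes 1 to 19 with more than 2000 bp from first to last base. This gave 2774 regions of the 14738 in the list, or 19.4% of the 14296 on those chromosomes. The tissue was whole mammary gland of wild-type mice with the strain background 129SV::FVB/N::C57BL/6, and no allele or agent set the groups apart. A second library of the same stage and strain, precipitated with an antibody against STAT5A, gave 8735 peaks on chromosomes 1 to 19. The series as a whole covers 11 samples from P6, day 13 of pregnancy and parturition, and its title names the order of events as its subject, with recruitment of STAT5 followed by the mark.

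H3K4me3 is written by SET1 and MLL methyltransferase complexes at CpG-rich promoters and is read by proteins that help to load RNA polymerase II. Most active promoters carry a narrow block of the mark on both sides of the start site. Much wider blocks are known from genes that define the identity of a cell type and from clustered or very actively transcribed genes. STAT5A is the transcription factor that prolactin activates through the kinase JAK2, and it drives the growth and differentiation of the milk-producing alveoli during pregnancy.

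Each antibody was represented by 1 library, so no p-value was computed, and "higher" and "lower" below compare these libraries only. The 95% intervals cover counting error alone, treat peaks or regions as independent counts, and are exact except for differences of shares. Sequencing depth is not known, because the lists hold no read counts. Both libraries came from whole tissue, in which regions and peaks of different cell types are pooled, and fewer cells that carry a mark cannot be told apart from a weaker mark in each cell. The labelled tissue was not checked against marker genes, and the genes and sequences under the regions were not analysed here, since no mm9 annotation or genome was used. Coordinates are in mm9 and count from 1.

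The broad regions made up 36.3% of all bases under H3K4me3 on these chromosomes, 7.57 of 20.9 Mb. Most were only moderately wider than the threshold. Their median width was 2444.5 bp, with quartiles of 2172 and 2924 bp, and 90% of them were at most 3749 bp wide. Of the 2774 regions, 1504 (54.2%) were at most 2500 bp wide and 639 more at most 3000 bp. Another 421 lay between 3000 and 4000 bp, 138 between 4000 and 5000 bp, and 72 (2.60%) above 5000 bp. Only 3 exceeded 10 kb. The regions of 2000 bp or less had a median width of 1165 bp.

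The threshold cut through a continuous distribution. Just inside it stood 3 regions of 2001 bp, chr12:70547464-70549464, chr2:22629243-22631243 and chr3:101180723-101182723, with scores of 96, 153.9 and 180.4. Just outside were chr12:112812136-112814135 with 2000 bp and a score of 361.9, and 2 regions of 1999 bp, chr4:47220686-47222684 and chr4:132439184-132441182, with scores of 138.1 and 514.5. Within 100 bp of the threshold lay 419 regions above it, with a median score of 373.3, and 473 at or below it, with 366.5.

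The score that the authors deposited for each region also came from the library that set the width, so it is given as a description. Broad regions had a median score of 448, with quartiles of 331 and 581 and a range from 78.9 to 2095.9, against a median of 167.7 in the other regions. Together they held 37.7% of the summed score, close to their share of bases. Per kb of width the median was 173 in broad regions and 139 in the others. The others were not uniform, with 74.9 from 500 to 1000 bp, 173 from 1000 to 1500 bp and 189 from 1500 to 2000 bp. A higher score per kb was thus not particular to broad regions. Within the broad regions the median per kb fell as width rose. It was 179 from 2000 to 2500 bp, 161 from 3000 to 4000 bp and 149 above 5000 bp. Across the 2774 broad regions, which share 1 library and were cut on width, Spearman's rho between width and score was 0.42.

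**Figure D1:**
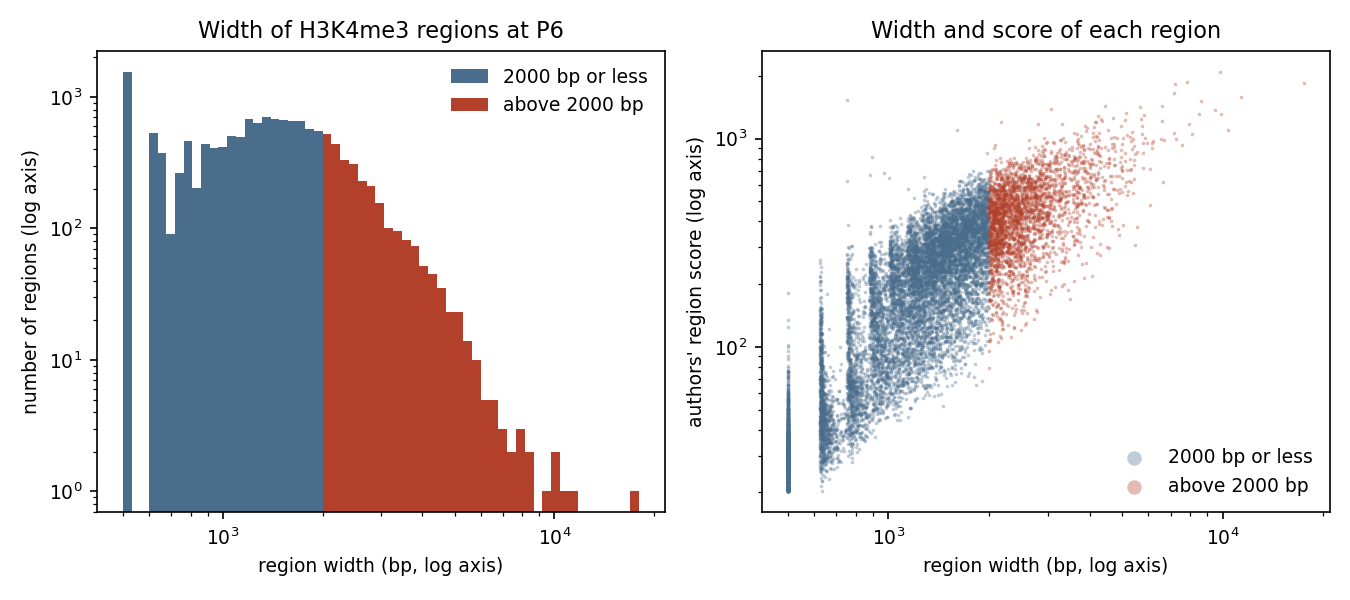
Number of H3K4me3 regions by width (left, both axes log) and the authors' score of each region against its width (right, both axes log), with regions above 2000 bp in red and the others in blue. The 2774 broad regions continue the distribution of the others without a gap, and their scores run from 78.9 to 2095.9.

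The 20 widest regions ran from 6570 to 17500 bp and lay on 12 chromosomes. The widest, chr2:9792287-9809786, had a score of 1844.9, the third highest of the broad regions, but at 105 per kb it ranked only 2419 in score per kb. It stood between neighbours at 556 and 561 bp, so that with gaps of up to 1000 bp closed it became a stretch of 21208 bp, chr2:9790747-9811954, of which 20091 bp were covered by 3 regions. Next came chr13:72761120-72772455 with 11336 bp and chr8:94878471-94888869 with 10399 bp, at scores of 1589.9 and 1105. The region with the highest score, 2095.9, was chr5:143575416-143585252, which ranked 5 in width. High scores and great width mostly coincided at this end of the list: 8 of the 10 highest scores belonged to the 20 widest regions. The other 2 were chr5:22937673-22942128, with 4456 bp and 321 per kb, and chr19:5840561-5846212, with 5652 bp. In contrast, chr11:23975752-23982374 ranked 18 in width with 6623 bp and only 539 in score, at 620.7.

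Every chromosome from 1 to 19 held a region of more than 5 kb. The widest on each ranged from 5333 bp on chromosome 18, chr18:75525998-75531330, to the 17500 bp region on chromosome 2. Chromosome 7, chr7:77502071-77507501, and chromosome 9, chr9:61218573-61223957, also had short maxima, of 5431 and 5385 bp. The share of regions that were broad was lowest on chromosome 4, at 148 of 967 (15.3%, interval 13.1 to 17.7), and highest on chromosome 12, at 121 of 520 (23.3%, 19.7 to 27.1). These 2 intervals did not overlap, but the 2 chromosomes were picked as the extremes of 19, so this is a description only. Chromosome 11 held the most broad regions, 271 of 1235 (21.9%, 19.7 to 24.4).

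Broad regions did not sit next to each other more often than other regions did. The next region along the chromosome was broad for 511 of 2772 broad regions (18.4%, interval 17.0 to 19.9) and for 2257 of 11505 others (19.6%, 18.9 to 20.4). The median distance to the nearest region of any width was 31.1 kb for broad and 24.7 kb for other regions. Another region lay within 5 kb of 384 broad regions (13.8%, interval 12.6 to 15.2) and of 1755 others (15.2%, 14.6 to 15.9), where 15.0% of all regions had such a neighbour. Within 1 kb it was 109 broad regions (3.93%, 3.24 to 4.72), 360 others (3.12%, 2.81 to 3.46) and 3.28% of all. The order thus turned with distance, and also with the threshold: above 3000 bp, 19.2% had a neighbour within 5 kb, 4.41 percentage points more than the rest of the list. Of the 20 widest regions, 9 had one.

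Chains were counted for broad regions only, so no share among other or all regions can be set beside these counts. When broad regions within 50 kb of each other were grouped, 582 of the 2774 (21.0%) fell into 253 chains, and the longest held 6. These were chr10:127845983-128027720, with widths from 2191 to 3570 bp, and chr13:23608703-23714980, with widths from 2144 to 2737 bp. Each carried 2 STAT5A peaks. At 10 kb, 5 chains of 3 remained the longest, among them chr13:21250745-21273469, in which the regions had no STAT5A peak.

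STAT5A was not used to choose the regions, and 555 of the 2774 broad regions (20.01%, interval 18.5 to 21.5) shared at least 1 bp with a STAT5A peak. Among all regions 12.0% did, and among the 11522 regions of 2000 bp or less 1154 did (10.0%, 9.47 to 10.6). The difference was 9.99 percentage points, with an interval of 8.44 to 11.6. The share rose through the broad regions, from 266 of 1504 between 2000 and 2500 bp (17.7%, 15.8 to 19.7) through 93 of 421 between 3000 and 4000 bp (22.1%, 18.2 to 26.4) to 30 of 72 above 5000 bp (41.7%, 30.2 to 53.9). Within ranges of the H3K4me3 score, the share did not rise throughout. For scores of 200 to 350 it was 14.2% (11.5 to 17.3) at 2000 to 3000 bp. Above 3000 bp it was 2 of 62 (3.23%, 0.39 to 11.2). For 350 to 500 the shares were 19.6% (16.8 to 22.6) and 17.4% (11.4 to 24.99). For 500 to 700 they were 21.5% (18.1 to 25.2) and 23.1% (17.4 to 29.6). These ranges leave out scores above 700. In the 100 bp above the threshold 78 of 419 regions (18.6%) held a peak, and in the 100 bp up to it 74 of 473 did (15.6%).

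Per base, the difference between broad and other regions was within counting error. Peak centres fell inside broad regions 592 times, or 78.2 per Mb (interval 72.1 to 84.8), and inside other regions 1092 times, or 82.2 per Mb (77.4 to 87.2). The ratio of broad to other was 0.95, with an interval of 0.86 to 1.05. With the threshold moved to 1500 bp it was 1.05 (0.95 to 1.17), and with it at 3000 bp 0.85 (0.72 to 0.99). In a window of equal size, 250 bp to each side of the centre, a peak centre was found in 98 broad regions (3.53%, 2.88 to 4.29), 503 others (4.37%, 4.0 to 4.75) and 4.20% of all regions. None of the 72 regions above 5000 bp had a peak centre there, a count of 0 whose exact interval reaches 4.99% and includes the shares of the other groups.

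**Figure D2:**
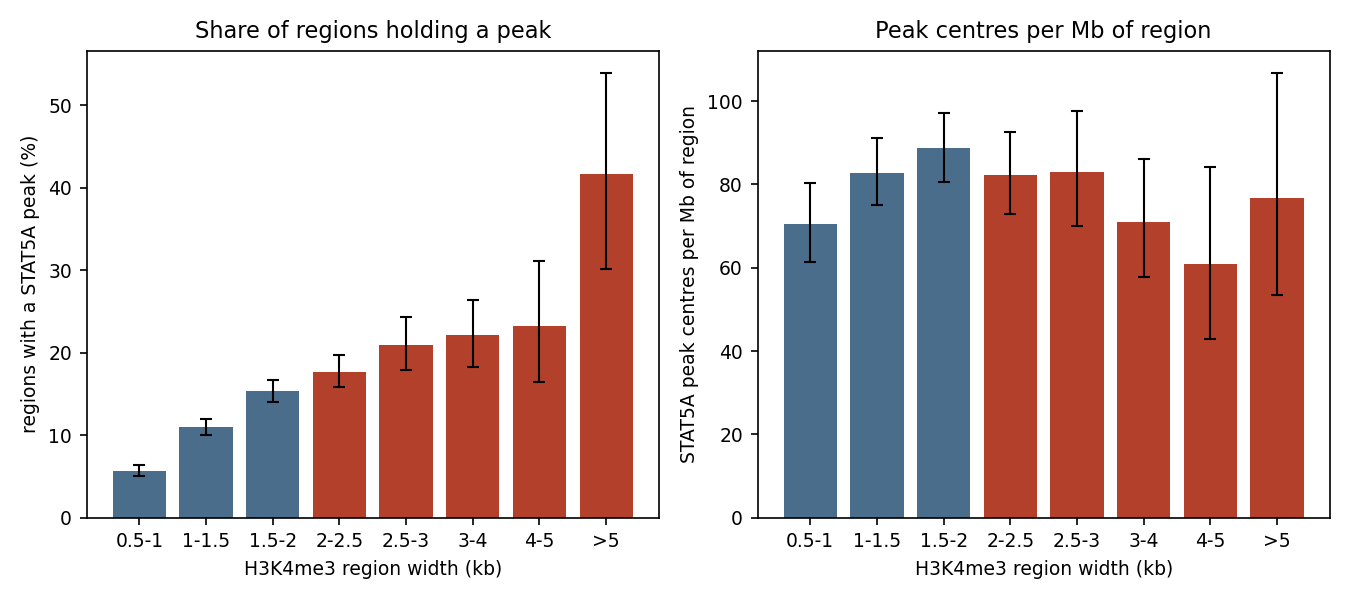
Share of H3K4me3 regions that hold a STAT5A peak (left) and STAT5A peak centres per Mb of region (right) in 8 classes of region width, with exact 95% counting intervals and broad regions in red. The share rises to 41.7% above 5 kb, while the number per Mb stays between 61.0 and 88.6 in all classes.

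Inside broad regions, peak centres were fewer in the outermost bases than in the next ones. Within 250 bp of an edge there were 76 centres, or 54.8 per Mb (interval 43.2 to 68.6), and from 250 to 500 bp there were 132, or 95.2 per Mb (79.6 to 113). From 500 to 1000 bp the value was 89.0 (78.3 to 101), from 1000 to 1500 bp it was 71.6 (58.3 to 87.0), and from 1500 to 2000 bp, on 20 centres, 52.0 (31.8 to 80.3). Beyond 2000 bp it was 71.9 (41.1 to 117) on 16 centres, so no steady course inward can be read. Other regions also had fewer centres at the edge, with 64.1 per Mb (57.7 to 70.9) in the first 250 bp and 103 (92.3 to 115) beyond 500 bp. The inner 50% of the width of broad regions held 311 of the 592 centres (52.5%, 48.4 to 56.6), an interval that includes an even spread, and with only peaks of at least the median score it held 46.3%.

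Most broad regions with STAT5A held a single peak. There were 506 with 1 peak, 46 with 2 and 3 with 3, so 49 (1.77%, interval 1.31 to 2.33) held more than 1, against 26 of the others (0.23%, 0.15 to 0.33) and 0.525% of all regions. These shares were not corrected for width, and a broad region has more bases on which a further peak can lie. The 3 regions with 3 peaks were chr14:106292743-106298701, chr4:94716091-94720640 and chr16:4878186-4881464. In the first, 5959 bp wide, the peaks had scores of 5.1, 6.7 and 4.3 and their centres lay 228, 1757 and 5502 bp from the left edge. In the second, 4550 bp wide, the scores were 4.5, 8.8 and 5.1 and all 3 centres lay in the right part, 2686, 3822 and 4513 bp from the left edge. In the third, 3279 bp wide, the scores were 5.3, 4.3 and 7.5.

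Among the 20 widest regions, 6 held STAT5A, and another 6 had a peak within 5 kb but not on them. All 3 of the 20 that lay on chromosome 8 belonged to the first kind. Of these, chr8:129110877-129119488 carried peaks with scores of 5.1 and 9.4, at 998 and 112 bp from its right edge, and chr8:11001673-11010151 carried 1 peak with a score of 8.8. The remaining members with STAT5A were chr8:94878471-94888869, chr13:72094249-72101790, chr5:32435090-32442258 and chr17:34253872-34261026, in which no peak scored above 5.4. For chr5:123585073-123594985 the nearest peak was 469 bp away, and for chr3:96359357-96366550 it was 195 bp away. The widest region, on chromosome 2, had none within 52.3 kb, and chr11:23975752-23982374 had none within 151.7 kb.

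STAT5A peaks on broad regions mostly had low scores. The 607 peaks that touched a broad region (6.95% of the 8735) had a median score of 5.4 with quartiles of 4.8 and 6.6, the same median as the 1180 peaks on other regions, while the 6948 peaks off H3K4me3 had a median of 6.2 and an upper quartile of 8.4. Of the peaks on broad regions, 21 (3.46%, interval 2.15 to 5.24) scored 11.1 or more, a mark that 10.2% of all peaks reached, 4.15% (3.09 to 5.45) of those on other regions and 11.8% (11.1 to 12.6) of those off H3K4me3.

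Only 2 peaks on broad regions scored above 20. One stood at 39.0, rank 10 of all peaks, at chr9:107198880-107199094, 543 bp inside the left edge of the 4239 bp region chr9:107198444-107202682. The other stood at 32.8, rank 15, at chr16:23988607-23988821, near the centre of the 4129 bp region chr16:23986678-23990806, 2036 and 2092 bp from its edges. These regions had H3K4me3 scores of 678.8 and 587.4, at ranks 376 and 659 of the broad regions. Next were 2 peaks with a score of 18.5, in chr8:47823911-47827640 and chr11:117828684-117831444, and a peak of 15.8 in chr2:163468491-163471311, whose centre lay 130 bp from the edge. These 5 regions were between 2761 and 4239 bp wide and none was among the 20 widest.

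Outside their edges, broad regions had more STAT5A peaks than other regions had. Each peak off H3K4me3 was given to its nearest region and set against the bases nearest to regions of that kind. From 10 to 50 kb outside the edges, 804 peaks lay nearest to broad regions, or 6.94 per Mb (interval 6.47 to 7.44), and 1750 nearest to others, or 4.18 per Mb (3.99 to 4.38). The ratio was 1.66 (1.53 to 1.81). It was 1.69 (1.42 to 2.01) from 5 to 10 kb, 1.85 (1.51 to 2.26) from 2 to 5 kb and 1.92 (1.39 to 2.63) from 1 to 2 kb. In the first kb both kinds had their highest values outside, 18.4 per Mb (14.96 to 22.4) at broad and 14.3 (12.8 to 15.9) at other regions, and the ratio was 1.29 (1.02 to 1.61).

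**Figure D3:**
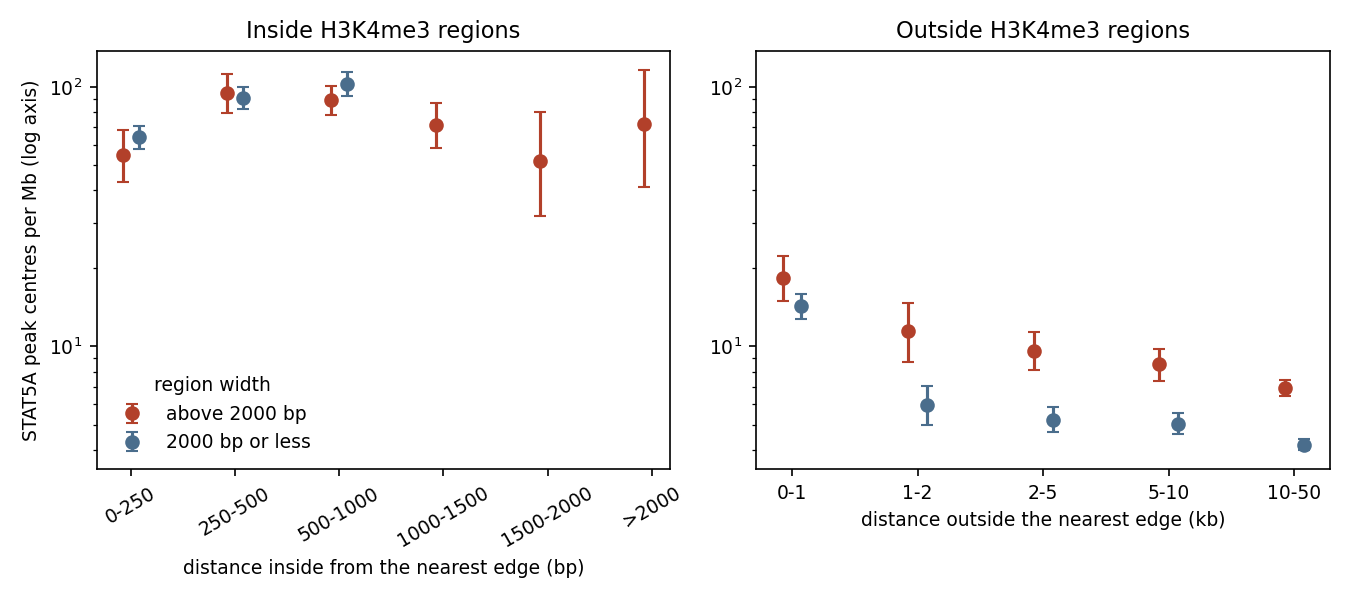
STAT5A peak centres per Mb by distance from the nearest edge, inside (left, bp) and outside (right, kb) H3K4me3 regions, for broad (red) and other (blue) regions, on a log axis with exact 95% counting intervals. Inside, the intervals of both kinds overlap in the first 500 bp. From 1 kb outward broad regions are higher, with 6.94 against 4.18 per Mb at 10 to 50 kb.

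The surroundings differed with width among the broad regions as well. At 10 to 50 kb there were 6.20 STAT5A peaks per Mb (interval 5.69 to 6.74) beside regions of 2000 to 3000 bp, 7.57 (6.32 to 8.99) beside those of 3000 to 4000 bp and 13.1 (10.8 to 15.6) beside the 210 regions above 4000 bp. The classes below the threshold had 4.74 (4.35 to 5.15) at 1500 to 2000 bp, 3.40 (3.11 to 3.71) at 1000 to 1500 bp and 4.52 (4.19 to 4.86) at 500 to 1000 bp, so the narrowest class was not the lowest. Counted by regions, 566 of the 2499 broad regions with bases at that distance (22.6%, 21.0 to 24.3) had such a peak, against 15.0% of all regions, and above 4000 bp 69 of 188 did (36.7%, 29.8 to 44.0). No broad region had more than 7 of these peaks, whereas 1 region of 1500 to 2000 bp had 12 and 1 of 500 to 1000 bp had 10. The 7 belonged to chr19:55815490-55820256, 4767 bp wide, which held no STAT5A peak itself.

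With a region that held a peak counted at a distance of 0, the nearest STAT5A peak was closer to wide regions. Its median distance was 27.7 kb for broad and 50.3 kb for other regions. Within the broad regions it fell from 31.2 kb at 2000 to 2500 bp to 1.64 kb above 5000 bp. These medians thus partly repeat the overlap. The regions entered at 0 were 555 of 2774 broad ones, 1154 of 11522 others and 30 of the 72 above 5000 bp. The shares that follow include them too, and regions without a peak were not tested apart. Within 10 kb or on the region lay a peak for 980 broad regions (35.3%, interval 33.5 to 37.1), 2472 others (21.5%, 20.7 to 22.2) and 24.1% of all. Within 50 kb the shares were 62.2% (60.4 to 64.0), 49.9% (49.0 to 50.8) and 52.3%. Regions with peaks nearby held a peak somewhat more often. Of 1420 broad regions with a peak 2 to 50 kb outside, 308 held one (21.7%, 19.6 to 23.9), and of 1354 without, 247 did (18.2%, 16.2 to 20.4), a difference of 3.45 percentage points (0.47 to 6.41). Among other regions these shares were 11.1% (10.2 to 12.0) and 9.19% (8.50 to 9.92), a difference of 1.90 points (0.79 to 3.02).

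Some gaps have a broad region on 1 side and another region on the other side. They gave a comparison within single gaps, with equal bases on both sides of the middle. There were 4518 such gaps among 14277. Of the 2885 STAT5A peaks in them, 1656 lay on the side of the broad region and 1229 on the opposite side, so 57.4% (interval 55.6 to 59.2) were nearer to the broad region. Most of the peaks, 2085, lay in gaps over 100 kb, where the share was 58.0% (55.8 to 60.1). In gaps of 20 to 100 kb it was 56.1% (52.3 to 59.9). Gaps up to 20 kb held only 119 peaks, with a share of 54.6% (45.2 to 63.8), which includes an even split. From 10 to 50 kb the share was 57.8% (54.7 to 60.8), and in the first kb it was 50.9% (43.0 to 58.8), which includes an even split. With only peaks in the upper 25% of scores the share was 53.6%, with an interval from 50.04 to 57.2.

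The higher number of peaks from 10 to 50 kb outside broad regions was seen on all 19 chromosomes, which share the 2 libraries and are not replicates. The ratio to other regions ran from 1.14 on chromosome 13 and 1.20 on chromosome 8 to 2.44 on chromosome 19 and 2.45 on chromosome 4. Chromosome 19 had the highest value at broad regions, 11.4 per Mb (interval 8.28 to 15.3), and chromosome 16 the lowest, 5.11 (3.31 to 7.54). On chromosome 8 the value at other regions, 6.52 (5.48 to 7.71), was itself the highest of all chromosomes. From 2 to 5 kb broad regions were higher on 18 of 19 chromosomes, and in the first kb on 11.

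**Figure D4:**
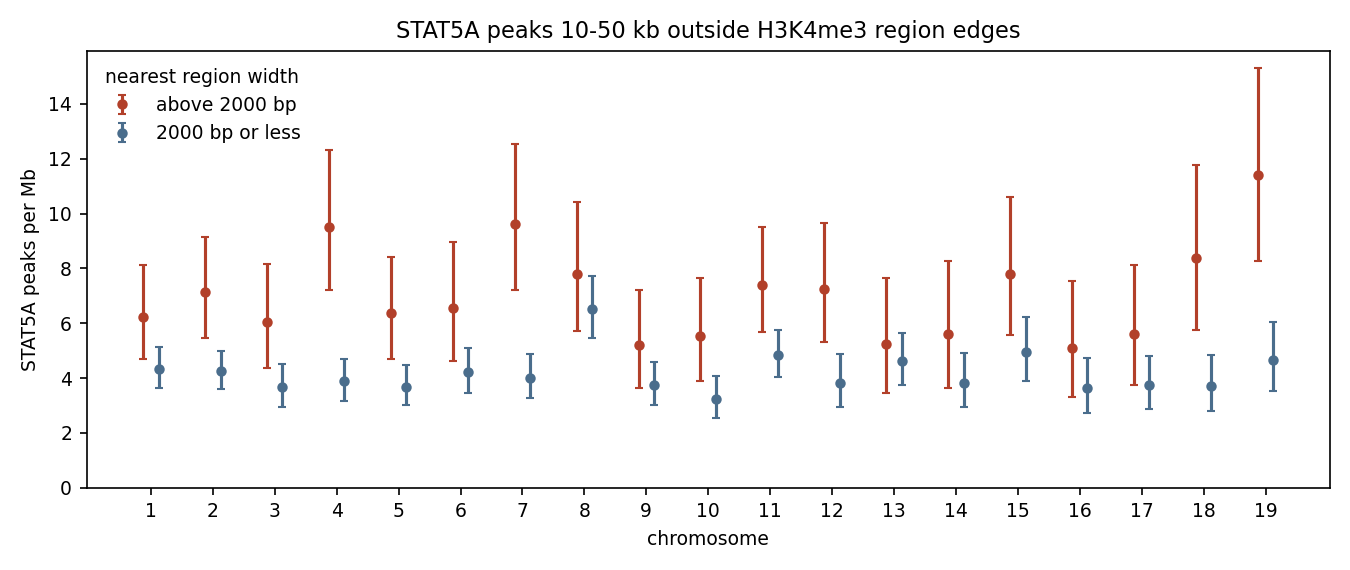
STAT5A peaks per Mb at 10 to 50 kb outside the edges of broad (red) and other (blue) H3K4me3 regions on each of chromosomes 1 to 19, with exact 95% counting intervals. The red point lies above the blue one on all 19, with ratios from 1.14 on chromosome 13 to 2.45 on chromosome 4.

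STAT5A inside and outside the broad regions was also set against the H3K4me3 score. The 2774 broad regions were ranked by score and put into 4 groups of equal size. Inside the regions, peak centres were at 56.6 per Mb (interval 45.7 to 69.2) in the group with the lowest scores, 66.8 and 85.2 in the next groups, and 96.7 (84.5 to 110) in the group with the highest. The share of regions holding a peak went from 13.3% (10.8 to 16.0) to 29.0% (25.6 to 32.5), with median widths of 2273.5 and 2975 bp. From 10 to 50 kb outside, the same groups stood at 7.28 (6.35 to 8.31), 6.42, 6.48 and 7.64 (6.63 to 8.76) peaks per Mb, all within overlapping intervals. Ranked by score per kb, the interior again rose from 49.5 (40.2 to 60.4) to 98.9 (84.8 to 115) per Mb. The surroundings of these groups stood at 7.32 (6.39 to 8.33), 8.05, 7.12 and 5.12 (4.30 to 6.05). Only the group with the highest score per kb was thus lower than the others. That group was also the narrowest, with a median width of 2352 bp against 2502.5 bp in the lowest group. Among regions of 2000 to 3000 bp alone, the surroundings stood at 4.90 (3.20 to 7.17) for the 130 regions with scores of 85 to 200. They were at 7.34 (6.34 to 8.46) for 200 to 350, 6.31 (5.48 to 7.24) for 350 to 500 and 5.03 (4.14 to 6.06) for 500 to 700. The course with score was thus not steady. Above 3000 bp, the values for scores of 200 to 350, 350 to 500 and 500 to 700 had overlapping intervals, so no direction can be read. They were 5.93 (3.57 to 9.27), 8.65 (6.44 to 11.4) and 9.02 (7.08 to 11.3).

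**Figure D5:**
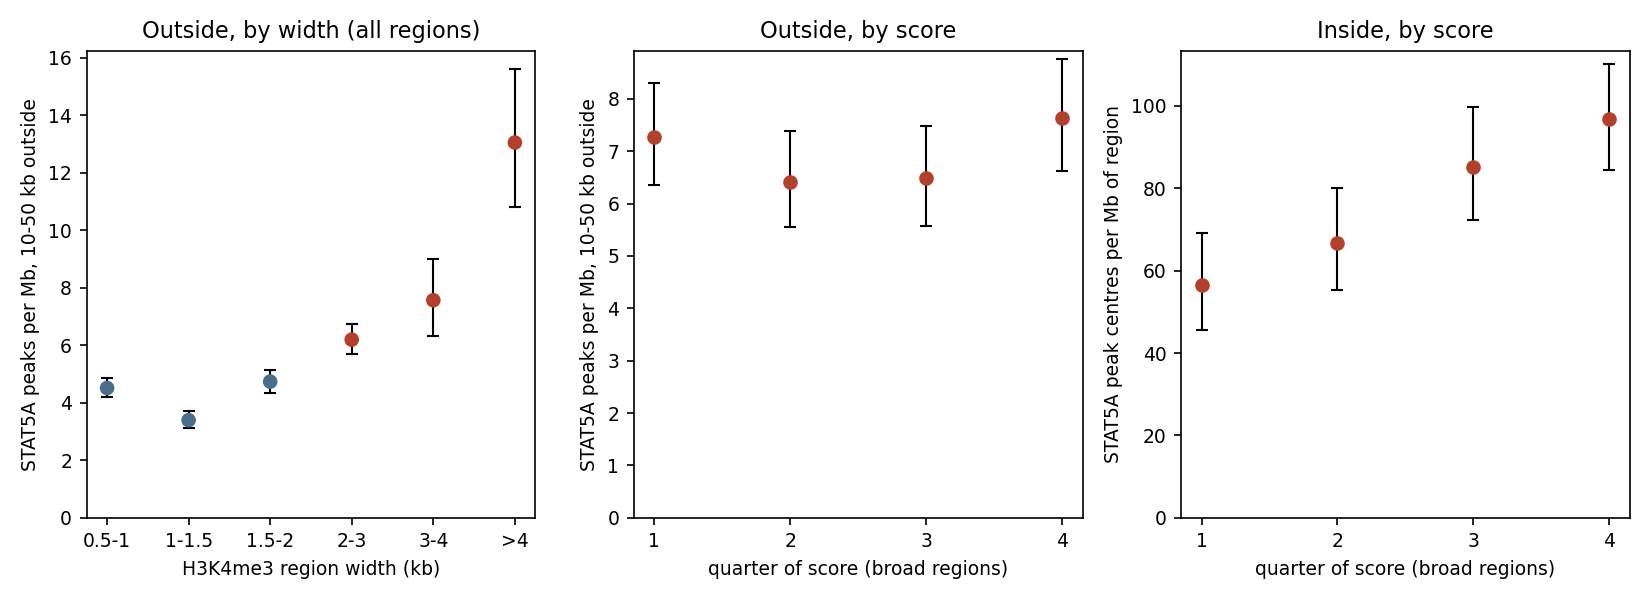
STAT5A peaks per Mb at 10 to 50 kb outside H3K4me3 regions by region width (left) and by score group of the broad regions (middle), and peak centres per Mb inside broad regions by score group (right), with exact 95% counting intervals. Outside values reach 13.1 per Mb beside regions above 4 kb and stay between 6.42 and 7.64 across score groups, whereas inside values go from 56.6 to 96.7.

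Broad and other regions were also compared within a range of scores. Between scores of 331 and 581, the middle 50% of the broad regions, there were 1386 broad regions with a median width of 2394 bp and 1865 other regions with a median width of 1660 bp. A STAT5A peak was held by 262 of the broad ones (18.9%, interval 16.9 to 21.1) and by 360 of the others (19.3%, 17.5 to 21.2), so the difference seen over all regions was gone at this range of scores, at -0.40 percentage points (-3.11 to 2.36). Per Mb of region, broad regions had fewer centres, 76.2 (67.4 to 85.9) against 116 (104 to 129). From 10 to 50 kb outside they had more, 6.45 (5.81 to 7.13) against 3.60 (3.17 to 4.08) per Mb. The range of scores was chosen after the data had been seen, and the broad regions in it had the higher median score, 448 against 393.3. Over all 14296 regions Spearman's rho between width and score was 0.845. At a like score a narrower region has more score per kb, and score per kb was not matched here. Among the broad regions, centres per Mb were higher at higher score per kb. Whether this bears on the comparison was not tested.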

How the data were processed

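STAT5A and H3K4me3 ChIP-seq libraries of P6 mammary tissue were analysed, 1 of each. Chromatin of crosslinked frozen tissue was sonicated before precipitation, per the labels' protocols. CASAVA, Bowtie and HOMER stand in the submitters' processing notes, with the build mm9. Their versions, the peak settings and any use of input: not given in the sources used here. In the deposited lists each region or peak has a position and a score whose scale the sources used here do not name. Scores served only to rank, group and describe entries within their own list. Region calling can join or split neighbouring blocks: gaps in the list were never under 501 bp, and every STAT5A peak was 215 bp wide.

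The 2774 members, the lists and the tests were chosen with earlier results of these data known. An overlap was at least 1 bp. Shares have exact Clopper-Pearson intervals, rates exact Poisson intervals, ratios of rates exact conditional intervals and differences of shares Newcombe intervals, all 95%. Bases in each gap between regions were given to the nearer region, and gaps beyond the first and last region of a chromosome were left out. The regions named were the 20 widest, the 10 with the highest score, the 10 with most STAT5A peaks, the 5 with the highest STAT5A scores, the widest on each chromosome and those next to the threshold. Not all of them are printed. Chains of broad regions and the region with most peaks outside it were named after their values were seen. Counting was tested on simulated peaks of known density. Python 3.11.15, numpy 2.4.6, pandas 2.3.3, scipy 1.17.1 and matplotlib 3.10.9 were used. The other 9 samples, expression at parturition included, were not analysed here: the expression table gives no positions to join to regions. Planned gene lists and annotation were left out because no mm9 annotation was used.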

Additional observations from a re-analysis of the deposited data

How the results depend on the processing

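Of 78 alternative values, 39 stayed within the interval of the main value (for the number of regions, within 1.5-fold), 33 moved and 6 turned. The share of covered bases has no interval, so any change of it counted as moved. Alternatives for the surroundings and the range of scores were chosen after seeing the data. No paired analysis was possible because each antibody had 1 library. Lists without read counts give no depth, which limits how far weak regions and peaks can be judged. With a threshold of 1500 bp there were 5719 broad regions with 60.7% of the covered bases; 17.6% held a STAT5A peak, 4.48% had a centre in the window (a difference of 0.45 points, turned), the ratio per Mb turned to 1.05, and the ratio at 10 to 50 kb was 1.47. At 3000 bp these were 631, 12.0%, 24.6% (13.2 points above the rest), 2.06% (-2.24 points), 0.85 and 2.09, and 19.2% had a neighbour within 5 kb (4.41 points, turned). Joining gave 38.1% and adding X 36.0% of covered bases. With STAT5A peaks of at least the median score, 7.25% held a peak (3.47 points), 0.94% had one in the window, 46.3% of centres were in the inner part (turned) and 55.5% of gap peaks were nearer the broad region. With the upper 25% of scores these were 2.74% (1.36 points), 0.29% and 53.6%. A peak within 1000 bp counted for 22.7% of regions, and a window of 500 bp to each side for 7.75%. Among regions of at least the median score the difference was 4.90 points, the ratio per Mb 0.78 and the window difference -2.40 points; in the middle range of scores the difference turned to -0.40 points and the ratio was 0.66. A neighbour within 2 kb was found for 7.14% (0.50 points, turned) and within 10 kb for 23.8% (-3.18 points). The causes of these changes were not tested, the smaller or larger sets that thresholds make included.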

Other observations

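On the X chromosome, which was left out of the report's comparisons, 54 of 442 H3K4me3 regions were wider than 2000 bp (12.2%, interval 9.31 to 15.6). This interval lies below the 19.4% of chromosomes 1 to 19 together, and overlaps that of chromosome 4, which had the lowest share among them. The 54 regions had a median width of 2434 bp and a median score of 293.2. The widest, chrX:39501793-39506007, had 4215 bp and a score of 483.1. Of the 54, 2 held a STAT5A peak (3.70%, interval 0.45 to 12.7), and of the 388 other regions on X 7 did (1.80%, 0.73 to 3.68). The X chromosome carried 87 of all 8822 STAT5A peaks (0.99%), so few peaks lay on regions of either width there.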
